A study of Homo sapiens with 15 samples.

Results

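The mRNA levels of 10 keratin genes were followed across oral cell lines that differ in epithelial character. The genes were taken by symbol from a table of 12995 genes, and all 10 were found: KRT5, KRT14, KRT6A, KRT6B, KRT16 and KRT17, which are keratins of stratified epithelium, and KRT7, KRT8, KRT18 and KRT19, which are keratins of simple epithelium. RNA was profiled by 3′ mRNA sequencing in 15 libraries, 3 in each of 5 groups, all labelled as 3 days in culture. OKF6 is a normal oral epithelial line, labelled wild type. SCC25 and SCC15 are tongue squamous carcinoma lines, which the study treats as basal-like and mesenchymal-like. Both SCC lines carried Cas9 and doxycycline-inducible guide RNA against YBX1, a DNA- and RNA-binding regulator. The study lists 2 guide sequences, and which of them the sequenced cells carried is not stated. In the groups written SCC25 +YBX1 and SCC15 +YBX1 no doxycycline was given, and the labels call them wild type. In SCC25 -YBX1 and SCC15 -YBX1, 1 µg/ml doxycycline was given, and the labels call them YBX1 knockout. The SCC cells were sorted for the GFP and mCherry of the 2 constructs and grown on as mixed populations. OKF6 and SCC25 were grown in serum-free keratinocyte medium, whereas SCC15 received DMEM containing serum, and a difference between SCC15 and the other lines cannot be told apart from a difference of medium.

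Keratins are the intermediate filament proteins of epithelial cells, and each filament is built from pairs of a type I (acidic) and a type II (basic) keratin. Basal cells of stratified epithelium use KRT5 with KRT14. KRT6A, KRT6B, KRT16 and KRT17 are the keratins of wounded or hyperproliferative keratinocytes and of oral mucosa. Simple epithelium uses KRT8 with KRT18, joined by KRT7 and KRT19. Among the 10 genes 5 are type II (KRT5, KRT6A, KRT6B, KRT7 and KRT8) and 5 are type I (KRT14, KRT16, KRT17, KRT18 and KRT19). Loss of keratins is a known feature of cells that take on a mesenchymal state, where vimentin filaments prevail.

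The values were log2 CPM, the logarithm of a gene's reads scaled to a common library size. They came back to whole reads, so the depth is known: 4075290 to 6118501 reads per library, with a median of 5689097. One read stood for 0.138 to 0.226 CPM, and 3 reads, used as the floor, for at most 0.677 CPM. YBX1 itself, the targeted gene, was lower in all -YBX1 libraries: 6.74, 6.31 and 6.62 log2 CPM in SCC25 +YBX1 against 5.26, 4.70 and 3.65 in SCC25 -YBX1, and 5.11, 5.56 and 6.00 in SCC15 +YBX1 against 3.36, 3.71 and 3.13 in SCC15 -YBX1. The replicates did not overlap, yet neither difference passed the correction over all genes (limma adjusted p = 0.29 in SCC25 and 0.326 in SCC15). Reads of a cut gene can remain, so these reads do not measure how many alleles were cut. The epithelial identity of the lines was checked on 10 marker genes. Their summed level was 3193 to 3971 CPM in OKF6 and 2010 to 2685 CPM in SCC25 +YBX1 but 17.0 to 28.0 CPM in SCC15 +YBX1. All 10 were called lower in SCC15 than in either other line, beside 23.6% of all genes against SCC25 and 23.4% against OKF6. CDH1, the E-cadherin gene, had 22 reads in the 3 SCC15 +YBX1 libraries together and 1962 in SCC25 +YBX1. Of 10 fibroblast markers the table held COL1A1 and LUM, and of 6 endothelial markers none. Summed, these fibroblast markers were at 11.5 to 30.4 CPM in SCC15 +YBX1 and 22.1 to 98.1 CPM in SCC25 +YBX1. They went opposite ways in SCC15 against SCC25: COL1A1 was called lower (-1.57, limma adjusted p = 0.0284) and LUM higher (3.25, adjusted p = 0.00498). LUM had 30 reads in SCC15 +YBX1 and 1 in SCC25 +YBX1, and the COL1A1 call was lost in 5 alternative fits.

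Of the 10 keratins, SCC15 held almost no mRNA, with the exception of KRT18 and a little KRT8. Against SCC25 +YBX1, all 10 keratins were called lower in SCC15 +YBX1 by limma, with p-values adjusted over 12995 genes by the Benjamini-Hochberg method and a threshold of 0.05, beside 23.6% of all genes called lower in that comparison. The median change of the 10 was -10.62 on the log2 scale, against -0.01 for all genes. For each of the 10 genes the SCC15 libraries all lay under the SCC25 libraries, where 34.1% of all genes lay lower without overlap. Against OKF6, 9 of 10 were called lower, beside 23.4% of all genes, with a median of -11.14, and the same 9 did not overlap, beside 25.5% of all genes. In these bulk samples, fewer keratin-expressing cells and less keratin mRNA per cell cannot be told apart.

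KRT5 and KRT14, the basal pair, had 4711 or more reads in each OKF6 and SCC25 library. KRT5 (chromosome 12, 52514575 to 52520530, minus strand, hg38) was at 12.52, 13.13 and 13.40 log2 CPM in OKF6, at 12.32, 12.06 and 11.40 in SCC25 +YBX1, and at 1.5, -1.25 and 3.04 in SCC15 +YBX1. In reads this was 12968 to 27216 per SCC25 +YBX1 library against 15, 2 and 53 in SCC15 +YBX1. The change from SCC25 to SCC15 was -10.83 ± 0.82 (log2, SE, n = 3 against 3, adjusted p = 2.21e-06). KRT14 (chromosome 17, 41582279 to 41586895) was at 10.24, 11.42 and 11.95 log2 CPM in OKF6, at 11.33, 11.18 and 9.96 in SCC25 +YBX1 and at -0.29, -0.40 and 1.66 in SCC15 +YBX1. Its 4, 4 and 20 reads in SCC15 +YBX1 stood against 4788 to 13662 per SCC25 +YBX1 library, a change of -10.50 ± 0.60 (adjusted p = 3.83e-07). The 2 basal keratins thus fell by a like amount, and in both the third SCC15 library held most of what was left.

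The promoter of KRT5 is shown because KRT5 defines the basal layer, fell in SCC15, and has a start in the promoter table, and because factors that bind E-boxes were among the genes measured. These are the 250 bases before its RefSeq start (GRCh38.p14, chr12:52520395-52520644, minus strand, printed 5′ to 3′), with the one copy of CAGGTG in capitals.
KRT5 promoter: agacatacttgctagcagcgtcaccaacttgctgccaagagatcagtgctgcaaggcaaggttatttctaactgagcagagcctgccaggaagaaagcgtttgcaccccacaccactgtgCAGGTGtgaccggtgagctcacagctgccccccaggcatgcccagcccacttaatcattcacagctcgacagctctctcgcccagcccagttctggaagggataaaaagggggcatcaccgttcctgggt
CAGGTG is the reverse complement of CACCTG, the E-box that the repressors ZEB1 and SNAI2 are known to bind. Read on both strands, CACCTG was found in 17.5% of 35116 RefSeq promoters of the same length. TATAAA (10.7% of promoters) and GGGCGG (42.6%) were not in this window. Only these exact letters were searched, so near forms of either motif are not covered. The window held 6 CpG, against a median of 11 over all promoters, and 56% GC, against a median of 58%. A match of letters is a description of the sequence and no evidence of binding.

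The keratins of activated keratinocytes showed the same order of lines. KRT6A (chromosome 12, 52487176 to 52493257), a type II keratin of wound edges, had the highest mean of the 10 in OKF6, with 13.75, 12.9985 and 13.63 log2 CPM, and was at 12.99, 12.33 and 11.93 in SCC25 +YBX1. In SCC15 +YBX1 it was at 2.03, -3.57 and 3.54 log2 CPM, from 22, 0 and 75 reads. Its change from SCC25 was -11.75 ± 1.36 (adjusted p = 4.60e-05). The count of 0 in the second library allows up to 3 reads, so the size of this change depends on the reads added before the logarithm: it was -11.04 with 2 reads added in place of 0.5. KRT6B, the close relative of KRT6A, fell by 10.76 on the log2 scale from 1976 to 7336 reads per SCC25 +YBX1 library to 2, 0 and 13 reads in SCC15 +YBX1, and by 9.82 with 2 reads added. KRT16, the type I partner of KRT6A, fell by 9.59 from 323 to 2112 reads to 0, 0 and 11 reads, and by 8.20 with 2 reads added. KRT17, a type I keratin of appendages and of carcinomas, fell by 9.22, from 3502 to 17528 reads to 14, 8 and 41 reads. KRT5, KRT14 and KRT17 were read in every SCC15 +YBX1 library, and KRT17 varied least among the 6 (SD 1.08 on the log2 scale).

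Among the simple keratins, KRT7 and KRT19 fell with the stratified ones while KRT8 and KRT18 fell far less. KRT7 (chromosome 12, 52232520 to 52252186), a type II keratin of ducts and glands, was at 9.46, 9.42 and 9.89 log2 CPM in SCC25 +YBX1 and at -1.14, -3.57 and -0.53 in SCC15 +YBX1, from 2, 0 and 4 reads. The change was -11.33 ± 0.61 (adjusted p = 2.96e-07), and -10.30 with 2 reads added. KRT19 (chromosome 17, 41523617 to 41528308), the short type I keratin without a tail, fell by 10.75 ± 0.74 (adjusted p = 1.17e-06), from 2233 to 4143 reads per SCC25 +YBX1 library to 2, 0 and 8 reads. With 2 reads added the change was -9.78. These 2 simple keratins thus had 6 and 10 reads over the SCC15 +YBX1 libraries, in the range of KRT16 (11) and KRT6B (15).

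KRT18 (chromosome 12, 52948871 to 52952906), the type I keratin of simple epithelium, was the one of the 10 with the most reads in SCC15. It was at 8.18, 7.99 and 8.11 log2 CPM in OKF6, at 8.93, 9.35 and 9.44 in SCC25 +YBX1, at 9.14, 8.50 and 9.89 in SCC25 -YBX1, at 5.67, 5.84 and 5.76 in SCC15 +YBX1 and at 5.12, 5.78 and 5.59 in SCC15 -YBX1. The 280, 339 and 351 reads in SCC15 +YBX1 gave a change of -3.48 ± 0.18 against SCC25 (adjusted p = 2.29e-07) and of -2.33 ± 0.18 against OKF6 (adjusted p = 1.79e-06). SCC15 thus held 5.69% to 9.34% of the SCC25 +YBX1 mean of KRT18 over its 6 libraries. For the 6 stratified keratins the same figure reached at most 0.73% in any SCC15 library.

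KRT8 (chromosome 12, 52897187 to 52949954), the type II partner of KRT18, was low in every line. It had 15, 38 and 68 reads in OKF6, 247, 362 and 205 in SCC25 +YBX1, 251, 327 and 228 in SCC25 -YBX1, 25, 10 and 13 in SCC15 +YBX1, and 14, 6 and 13 in SCC15 -YBX1. It was lower in SCC15 than in SCC25 by -4.34 ± 0.56 (log2, adjusted p = 9.92e-05). Against OKF6 the change was -1.37 ± 0.56, the replicates overlapped, and the adjusted p was 0.061. That call turned on single libraries: it was -1.96 (adjusted p = 0.004) without the first OKF6 library and -1.80 (adjusted p = 0.0315) without the first SCC15 library. Of the 72 transcript-end pieces of KRT8 that aligned whole to its own locus, 18.1% aligned as well elsewhere, against 5.17% for KRT18 and 0% for KRT5, KRT6A, KRT6B, KRT7, KRT17 and KRT19. How the authors counted reads with several alignments was not given in the sources used here, so the level of KRT8 is less certain than those of the other members. The annotated KRT8 gene also overlaps the start of KRT18 on the other strand.

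Because each read of this 3′ method marks the end of a transcript, reads of different keratins in one library were compared without division by length. The ratio of KRT8 to KRT18 reads was 0.00994, 0.0338 and 0.0416 in OKF6 and 0.0949, 0.11 and 0.0612 in SCC25 +YBX1, so KRT18 exceeded its partner by far in both lines. In SCC15 +YBX1 it was 0.0893, 0.0295 and 0.037. The ratio of KRT5 to KRT14 reads was 4.87, 3.28 and 2.74 in OKF6 and 1.99, 1.84 and 2.71 in SCC25 +YBX1. All OKF6 libraries thus lay above those of SCC25 +YBX1 in the KRT5 to KRT14 ratio and below them in the KRT8 to KRT18 ratio, which 3 against 3 libraries cannot test below p = 0.1 (exact permutation test, two-sided).

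The shares of all reads put the 10 genes on one scale. The 10 keratins took 2.36% to 3.67% of the reads in OKF6, 0.996% to 2.00% in SCC25 +YBX1 and 0.854% to 2.29% in SCC25 -YBX1. In SCC15 they took 0.00663% to 0.0105% with YBX1 and 0.00622% to 0.00729% without it. The stratified keratins made up nearly all of the difference between OKF6 and SCC25, since the 4 simple keratins took 0.159% to 0.215% of reads in OKF6 and 0.176% to 0.196% in SCC25 +YBX1. Within the keratin reads, the simple members were 5.10% to 6.93% in OKF6, 8.82% to 19.6% in SCC25 +YBX1, and 63.8% to 96.1% in SCC15 +YBX1. The ratio of type II to type I reads was 1.91 to 4.23 in OKF6 and 1.79 to 2.71 in SCC25 +YBX1 but 0.0342 to 0.367 in SCC15 +YBX1, where KRT18 had no type II partner of like abundance among the 10 genes. For the total share, the simple share of keratin reads and the type ratio, SCC15 +YBX1 did not overlap OKF6 or SCC25 +YBX1, and each exact permutation test (two-sided, n = 3 against 3) gave p = 0.1, the smallest this design allows.

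The traces of stratified keratins in SCC15 differed between libraries of the same group. Summed over the 6 genes, SCC15 +YBX1 held 57, 14 and 213 reads and SCC15 -YBX1 112, 63 and 29. The third SCC15 +YBX1 library was the highest of its group for 6 of 6 stratified keratins and the second was the lowest for 6 of 6. In the third library the 6 genes stood at 0.157% to 0.73% of their SCC25 +YBX1 mean, and in the first SCC15 -YBX1 library at 0.0916% to 0.148%. KRT18 did not follow this order: its 3 levels in SCC15 +YBX1 lay within 0.16 of each other on the log2 scale.

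The makeup of those traces was set beside that of the lines that express the genes. In the third SCC15 +YBX1 library, KRT6A made up 35.2% of the 213 stratified reads (95% exact binomial interval 28.8% to 42.0%), KRT5 24.9% (19.2% to 31.2%), KRT17 19.2% (14.2% to 25.19%), KRT14 9.39% (5.83% to 14.1%), KRT6B 6.1% (3.29% to 10.2%) and KRT16 5.16% (2.61% to 9.05%). Over the 6 SCC25 libraries these shares ran from 24.4% to 53.2% for KRT6A, from 21.3% to 30.9% for KRT5, from 7.35% to 17.5% for KRT17 and from 7.72% to 19.8% for KRT14. KRT6B ran from 4.11% to 6.61% there and KRT16 from 0.762% to 3.30%. The intervals of all 6 genes in that SCC15 library reach into the range of the SCC25 libraries. The second library of each SCC15 group did not share this. KRT17 made up 57.1% (28.9% to 82.3%) of 14 reads in SCC15 +YBX1 and 30.2% (19.2% to 43.0%) of 63 reads in SCC15 -YBX1. Both lay above the SCC25 and the OKF6 range, and KRT6A with 0 of the 14 reads (0% to 23.2%) lay under both ranges. KRT14 in that SCC15 -YBX1 library, at 22.2% (12.7% to 34.5%), lay above the OKF6 range only. These intervals cover counting error only. The source of these traces was not tested.

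SCC25 and OKF6, the 2 lines in the same medium, differed most clearly in KRT8 and KRT18. SCC25 also carried the constructs and was sorted, which is not stated for OKF6. A difference of line cannot be told apart from that handling. Both simple keratins were called higher in SCC25 +YBX1, beside 18.9% of all genes called higher. KRT8 rose by 2.97 ± 0.56 (log2, 7.81-fold, adjusted p = 0.00281) and KRT18 by 1.15 ± 0.18 (2.22-fold, adjusted p = 0.000961), and neither overlapped. The 2 calls held when any 1 library was left out. KRT7 was also higher in all 3 SCC25 libraries, by 1.39 ± 0.61 (95% interval 0.03 to 2.75), but at an adjusted p of 0.112 it was not called. It was called in 3 of the 15 alternative fits, among them the fit to these 2 groups alone (adjusted p = 0.00626).

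None of the 10 keratins was called lower in SCC25 than in OKF6 by limma, beside 11.3% of all genes called lower. KRT5 (-1.09 ± 0.82, adjusted p = 0.344), KRT6A (-1.04 ± 1.36, adjusted p = 0.594) and KRT19 (-1.01 ± 0.74, adjusted p = 0.335) had all SCC25 libraries under all OKF6 libraries. With KRT7, KRT8 and KRT18, which lay higher, 6 of 10 members thus did not overlap between the lines, beside 43.3% of all genes. The fit estimates the spread of every gene over SCC15 too, where KRT5, KRT6A and KRT19 had SDs of 2.17, 3.75 and 2.00 (log2) on few reads. The cause of the missing calls was not tested. In the fit to OKF6 and SCC25 alone KRT19 was called (adjusted p = 0.0352) and KRT5 and KRT6A were not. The other stratified keratins overlapped: KRT14 at -0.38 ± 0.60, KRT6B at -0.64 ± 0.93, KRT16 at -1.83 ± 1.14 and KRT17 at -1.07 ± 0.62. All 6 stratified keratins had a negative value, with a median of -1.06 against 0.13 for all genes. Their 95% intervals reached from -4.35 (KRT16) to 1.96 (KRT6A), so neither a fall of several fold nor no change was outside them.

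The doxycycline arms were compared to see whether keratins depend on YBX1. Doxycycline was given in the -YBX1 groups only, so its own effect cannot be told apart from that of the cut. None of the 10 keratins was called in SCC25 -YBX1 against SCC25 +YBX1, nor in SCC15 -YBX1 against SCC15 +YBX1, by limma. At an unadjusted p under 0.05 the counts were 0 of 10 in both lines, beside 3.09% of all genes in SCC25 and 2.32% in SCC15. The replicates of the arms overlapped for all 10 keratins in both lines, where 7.31% and 7.04% of all genes did not overlap. Over all genes, 0 passed the correction in either line (401 in SCC25 and 302 in SCC15 at an unadjusted p under 0.05). The widths of the intervals differed by gene. The value for KRT18 was -0.06 in SCC25 (95% interval -0.67 to 0.54) and -0.26 in SCC15 (-0.87 to 0.35). For KRT8 it was -0.01 in SCC25 (-0.86 to 0.84) and -0.67 in SCC15 (-1.52 to 0.18). For KRT5 it was -0.15 in SCC25 (-2.03 to 1.73), and for KRT16 it was 0.07 (-2.43 to 2.57). Changes of severalfold in these stratified keratins lay within the intervals. The knockdown effects differed between the lines for 0 of 10 keratins at an unadjusted p under 0.05, beside 2.26% of all genes, and ran from -0.94 ± 1.75 for KRT6A to 0.66 ± 0.56 for KRT8. The KRT6A value depends on the reads added, since it was -0.36 with 2 reads added. KRT6A had 22, 0 and 75 reads in SCC15 +YBX1 and 41, 15 and 11 in SCC15 -YBX1. All keratins but KRT18 had at most 75 reads in any SCC15 library, so their changes there are poorly measured. The 4 simple keratins together took 0.00637% to 0.00669% of reads in SCC15 +YBX1 and 0.00464% to 0.00619% in SCC15 -YBX1. These shares of unscaled reads did not overlap, and the exact permutation test (two-sided, n = 3 against 3) gave its smallest p of 0.1. For the share of all 10 keratins in SCC15 the exact permutation test gave p = 0.2. For the stratified share the exact permutation test gave p = 0.9. KRT18 held 280, 339 and 351 of the 309, 349 and 376 simple keratin reads in SCC15 +YBX1. In log2 CPM, KRT18 overlapped between the arms (5.67 to 5.84 in SCC15 +YBX1, 5.12 to 5.78 in SCC15 -YBX1).

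The stratified keratins varied more between replicate libraries of SCC25 than did most genes, and they varied together. The standard deviation over 3 libraries had a median of 0.81 log2 units among the 6 genes in SCC25 +YBX1 and 1.2 in SCC25 -YBX1, against 0.23 and 0.37 over all genes. For the simple members it was 0.33 and 0.41. The third library was the lowest for 6 of 6 stratified keratins in both arms. The first was the highest for 6 of 6 in SCC25 +YBX1, and the second for 5 of 6 in SCC25 -YBX1, where KRT14 reached 12.28 log2 CPM against 10.08 and 9.82 in the other 2. KRT16 spanned the most, with 2112, 1176 and 323 reads in SCC25 +YBX1 and 554, 4283 and 407 in SCC25 -YBX1. KRT18 ran the other way: the third library was its highest in both arms (9.44 and 9.89 log2 CPM), and the second SCC25 -YBX1 library, rich in KRT14, was its lowest at 8.50.

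Deviations of libraries of the 2 arms with the same replicate number correlated at 0.143 to 0.514 over 6497 genes. The within-pair differences show the same coordination of the stratified keratins. In SCC25 all 6 stratified keratins were lower in -YBX1 in the first pair (median -0.93) and all 6 were higher in the second (median 0.95), with 2 of 6 higher in the third (median -0.24). YBX1 was lower in all 3 pairs, by -1.48, -1.60 and -2.96. In SCC15 all 6 stratified keratins were higher in the first and second pairs (median 0.73 and 2.20) and lower in the third (median -2.62), on few reads. The sign of the stratified keratins thus differed between pairs. The cause of these turns was not tested. With the pairing in the fit, the count of called keratins was again 0 in both lines.

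The table held 12 other keratin genes. Beside 23.6% of all genes, all 12 were called lower in SCC15 than in SCC25. Of these, 8 had 0 reads in all 3 SCC15 +YBX1 libraries: KRT4, KRT9, KRT13, KRT15, KRT31, KRT34, KRT75 and KRT80. With 3 reads per library as the floor, KRT34, a hair keratin, was at least 35.2-fold higher in SCC25. KRT13, a keratin of oral mucosa, had 233, 34 and 8 reads in SCC25 +YBX1, so most of its reads came from 1 library. KRT10, the type I keratin of differentiating keratinocytes, was the exception in size. It was at 7.55, 7.64 and 7.29 log2 CPM in SCC25 +YBX1 and 6.38, 6.37 and 6.2996 in SCC15 +YBX1, a change of -1.14 (adjusted p = 0.0026). KRT10 and KRT18, both type I, were thus the most read of the 22 keratins in SCC15, with 1460 and 970 reads in its +YBX1 libraries. Against OKF6, 10 of the 12 were called lower in SCC15, beside 23.4% of all genes. KRT75 and KRT81, which OKF6 scarcely expressed, were not called. Among the 10, KRT10 (-0.77, adjusted p = 0.019) was not called with equal library medians (0.0642), without the third OKF6 library (0.066) or without the third SCC15 library (0.0581). KRT75, not among them, was called under quantile normalization (0.0127) and without the second OKF6 library (0.00909). Between SCC25 and OKF6, KRT34 (1.91), KRT75 (3.29) and KRT81 (3.58) were called higher in SCC25 and KRT4 (-2.38) and KRT15 (-1.73) lower. Of all genes, 18.9% were called higher and 11.3% lower there. KRT75 had 1, 0 and 6 reads and KRT81 0, 0 and 2 in OKF6, against 23, 21 and 8 and 9, 12 and 8 in SCC25 +YBX1, so the sizes of these 2 changes depend on the reads added. The KRT34 call was lost without the first SCC25 library (adjusted p = 0.0804), that of KRT81 under quantile normalization (0.0685), and that of KRT15 without the second OKF6 library or the second or the third SCC25 library (0.0537 to 0.102). In the doxycycline arms 0 of 12 were called in either line. KRT1, the type II partner of KRT10, had 337, 384 and 23 reads in SCC25 +YBX1 and 60, 1701 and 10 in SCC25 -YBX1, so it too was lowest in the third library of both arms and highest in the second SCC25 -YBX1 library.

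Of 16 listed filament genes other than keratins, 12 were in the table, of which 4 were called higher and 2 lower in SCC15 against SCC25, and 6 higher and 1 lower against OKF6. Over all genes, 20% were called higher and 23.6% lower in SCC15 than in SCC25. Against OKF6 the shares were 26.9% higher and 23.4% lower. VIM, vimentin, was at 8.29 ± 0.07 log2 CPM (SD, n = 3) in SCC15 +YBX1, 9.67 ± 0.39 in SCC25 +YBX1 and 6.57 ± 0.17 in OKF6. It was thus lower in SCC15 than in SCC25 (-1.38, adjusted p = 0.000353) although higher in both than in OKF6 (1.72 and 3.10). LMNA, the lamin A/C gene, was lower in SCC15 than in SCC25 by -3.37 and LMNB1, lamin B1, higher by 1.70. The neurofilament gene NEFL was at 5.15 in SCC15 +YBX1 and 4.65 in SCC25 +YBX1, with 2 reads in all of OKF6. INA, the internexin gene, had 610 reads in SCC15 +YBX1 and 0 in OKF6, at least 58.4-fold higher. NEFM had 291 reads and 0, and NES, nestin, was also called higher in SCC15 than in either line, although against SCC25 not without the first SCC25 library (adjusted p = 0.0506).

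Genes whose proteins anchor or bind keratins were mostly lower in SCC15 too. Of 14 linkers and binding partners in the table, of 17 listed, 13 were called lower in SCC15 than in SCC25, beside 23.6% of all genes. The same number was called lower than in OKF6, beside 23.4% of all genes, and the medians were -3.74 and -4.14. JUP, plakoglobin, changed by -4.03 (adjusted p = 1.38e-06) and DSP, desmoplakin, by -2.93 (adjusted p = 4.06e-06) against SCC25. In the SCC15 +YBX1 libraries together, 1613 and 1652 reads of them remained. SFN, the 14-3-3 sigma protein, which binds KRT17, changed by -10.79, from 61128 reads in SCC25 +YBX1 to 49, and YWHAZ, 14-3-3 zeta, by -1.31. TCHP, the keratin-binding trichoplein, was called in neither comparison. Against SCC25 it was at -0.64 (adjusted p = 0.0506), with all SCC15 libraries under all SCC25 libraries, and 2 alternative fits called it (0.00486 and 0.047). Between SCC25 and OKF6, TCHP was called higher and DSP, DST, PPL and PKP2 lower, beside 18.9% of all genes higher and 11.3% lower. Without the third SCC25 library DSP (adjusted p = 0.0768) and PPL (0.0639) were no longer called. DSP was also lost in the fit to only the groups compared (0.0538), and TCHP was lost in 8 of 15 alternatives.

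Regulators known to act on keratin genes were mostly lower in SCC15 as well. All 20 listed were in the table, of which SCC15 had 17 called lower and 1 called higher against SCC25, and 18 lower and 1 higher against OKF6. The shares of all genes were 23.6% lower and 20% higher against SCC25, and 23.4% lower and 26.9% higher against OKF6. SNAI2, a zinc-finger repressor also present in basal keratinocytes, changed by -1.99 against SCC25 (adjusted p = 0.00334). TFAP2A and KLF5, transcription factors of keratinocytes, changed by -1.42 and -3.93, and NOTCH1, a receptor in keratinocyte differentiation, by -1.27. The 1 gene higher in SCC15 was ZEB1, the repressor of epithelial genes, at 4.24 ± 0.39 log2 CPM in SCC15 +YBX1, 0.69 ± 0.13 in SCC25 +YBX1 and 1 read in all of OKF6. TP63, the master regulator of stratified epithelium, was picked out after its values were seen: it had 1 read in the 3 SCC15 +YBX1 libraries, 2260 in SCC25 +YBX1 and 2011 in OKF6. SOX2 was called in none of the 3 comparisons between lines. In SCC25 against OKF6, 6 regulators were called lower, GRHL1, GRHL3, TFAP2A, ZNF750, NFE2L2 and NOTCH1, beside 11.3% of all genes. ZEB1 was called higher (3.53), beside 18.9% of all genes. It had 8, 7 and 8 reads in SCC25 +YBX1 and 1, 0 and 0 in OKF6, so the size of this change depends on the reads added. The calls of NOTCH1 and ZNF750 were lost in 5 and 4 of the 15 alternatives, and that of ZNF750 against SCC15 in 11. None of the filament, linker or regulator genes was called in the doxycycline arms.

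Genes that followed the keratins over the 15 libraries were ranked by Pearson correlation of log2 CPM with the mean of each set. These correlations describe libraries of the same 3 lines, of which SCC15 alone was grown in DMEM with serum, and rest mainly on the gap between SCC15 and the others. Nearest to the stratified set were FGFBP1 (r = 0.995), S100A2 (0.995), FXYD3 (0.995), S100A6 (0.993) and SPRR1A (0.993). Nearest to the simple set were GJB5 (0.995), BCAR3 (0.994), SLC22A3 (0.994), HORMAD1 (0.993) and LOC389641 (0.993). In all, 540 genes exceeded 0.95 with the stratified set and 595 with the simple set, so a high correlation was common among genes that are low in SCC15.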

How the data were processed

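Libraries were made with the QuantSeq 3′ mRNA-seq FWD kit and sequenced as single-end reads. Per the labels and the submitters' processing notes, the authors used Cutadapt, HISAT2, featureCounts and limma on hg38. They deposited 2 tables of log2 CPM values for 12995 genes, one with 9 libraries of 3 lines and one with 12 libraries of the knockdown, sharing 6 libraries that held the same values. The setting for reads with several alignments or for strand was not given in the sources used here. Each library's lowest value was 0 reads with 0.5 added, and 100% of values came back to whole reads within 0.1.

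From the log2 values, limma 3.58.1 (R 4.3.3; lmFit and eBayes with a variance trend, two-sided, Benjamini-Hochberg over all genes, threshold 0.05) was fitted with group as the only term, per table, and tested on simulated data. Nothing says that replicates came from separate cultures, so p-values measure the spread between these libraries, which may be technical. Replicate numbers come from the labels. Over 6497 genes, deviations of same-numbered -YBX1 and +YBX1 libraries correlated at 0.143, 0.462 and 0.402 for SCC25. For SCC15 the values were 0.514, 0.354 and 0.221. These numbers were therefore taken as pairs in an alternative fit. It called no gene in either knockdown, as without the pairs, and changed no call of the 10 keratins. Between lines it changed calls of other genes. ZNF750 was lost for SCC15 against SCC25 (limma adjusted p = 0.0637) and for SCC25 against OKF6 (0.0503). LMNB2, NFE2L2 and YBX1 were gained for SCC15 against SCC25, and LMNB1 and COL1A1 for SCC15 against OKF6. Transcript ends (GENCODE v44) were cut into pieces and aligned to hg38 with minimap2 2.31. Promoters came from RefSeq (GRCh38.p14), where KRT5 and KRT8 were matched and KRT8, listed at an upstream start, was not used. The keratins and gene lists were chosen with earlier results of these data known. Named genes were the 10 keratins, all other keratins, YBX1, the 5 best correlated genes per set and, per list, the 4 most abundant called genes. Genes outside that rule were named after their values were seen. A list of leukocyte markers is not reported here.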

Additional observations from a re-analysis of the deposited data

How the results depend on the processing

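The counts of called keratins were recomputed under 15 alternatives per comparison between lines and per knockdown (20 for the difference of knockdowns), each changing one choice. For SCC25 against OKF6, where 2 were called, the count was 4 in the fit to only the groups compared (KRT7 and KRT19 added) and 5 with voom weights (KRT5, KRT7 and KRT19 added). The first of these has fewer samples and leaves out SCC15, and the cause for voom was not tested. KRT7 was also called with 2 reads added. For SCC15 against SCC25 it was 10 in every alternative. For SCC15 against OKF6 it was 9 or 10, with KRT8 added under quantile normalization (-1.63, adjusted p = 0.0196) and without the first library of OKF6 or of SCC15. With each library left out in turn the counts were 10, 9 to 10 and 2. With the replicate block they were 10, 9 and 2. Deviations of same-numbered libraries of different lines correlated at -0.207 to 0.260 over 6497 genes, with both signs in each comparison. In the knockdowns the count was 0 in every alternative, the replicate block included. Over all genes, 6 were called in SCC25 without the second -YBX1 library and 0 otherwise. With equal library medians and with quantile normalization, the median change of all genes was 0.14 and 0.17 for SCC15 against SCC25 (-0.01 as reported), 0.26 and 0.14 for SCC15 against OKF6 (0.10), and 0.14 and -0.05 for SCC25 against OKF6 (0.13). No keratin changed sign in any alternative where it was called, and quantile normalization gave 2006 higher and 1837 lower genes in SCC25 against OKF6 in place of 2450 and 1473. Among all list genes, 64 calls of 1 gene in 1 comparison and alternative were lost and 59 gained, and none turned its sign. Changes involving groups with libraries at 0 to 3 reads depend on the reads added. A count of 0 in a library allows up to 3 reads.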
